A study of Rattus norvegicus with 4 samples.

Results

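The genes described here govern the decision of a cell to leave G1 and the p53 response that can hold it there: the D cyclins Ccnd1, Ccnd2 and Ccnd3, their kinase Cdk4, the CDK inhibitors Cdkn1a and Cdkn1b, and the p53 targets Mdm2, Gadd45a and Bax. They were chosen by symbol, as a list of the pathway. Of the 9 genes, 8 had a row in the expression table, out of 14137 gene identifiers, and all 8 passed the filter on low values; Ccnd2 had no row under that symbol and was not analysed here. The RNA came from cultured neonatal rat ventricular myocytes (NRVMs), a primary culture of newborn heart muscle in which non-muscle cells of the heart are also found. All cultures were infected with lentivirus and harvested at day 5. The 2 control libraries (labelled WT) carried a control short hairpin RNA, and the 2 Crat hairpin libraries (labelled KO) a hairpin against Crat, the mitochondrial carnitine acetyltransferase, so that the comparison is of a knockdown and not of a deleted gene. The labels give no age beyond neonatal, and they do not say that libraries of the same group are separate cultures. The p-values therefore measure only the spread between these libraries, which may be technical.

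D cyclins bind CDK4 and CDK6, and the active kinases phosphorylate the retinoblastoma protein, which releases E2F factors and opens the way to DNA replication. The CIP/KIP inhibitors p21 (Cdkn1a) and p27 (Cdkn1b) bind cyclin-CDK complexes and restrain them, and p21 is the best known transcriptional target of p53. Cardiomyocytes leave the cell cycle soon after birth, D cyclins are among the factors able to push them back into it, and p27 accumulates in them as they withdraw, while the fibroblasts and smooth muscle cells of a heart culture go on dividing.

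The reads behind the values came to between 321516 and 23680064 per library, a 73.7-fold range, with Crat hairpin replicate 1 the shallowest and control replicate 1 the deepest. Values are RPM, the reads of a gene scaled to a common library total without division by gene length, so that they are compared between libraries and not between genes. In Crat hairpin replicate 1 a single read was worth 3.11 RPM, and the 8 genes were counted there with 10 to 142 reads. Crat itself, the target, was counted at 148 and 156 RPM with the control hairpin and fell to 24.9 and 19.7 RPM with its own hairpin (log2 change -2.72, limma adjusted p = 7.32e-06). Over all 12949 genes tested, 19% passed the limma test at an adjusted p under 0.05, 12.6% higher and 6.36% lower in the Crat hairpin group. The median log2 change of all genes was 0.15, and it was -0.03 under median-of-ratios scaling, which gave 8.04% higher and 9.66% lower. For genes with small changes the value relative to that median is therefore given too.

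Promoter windows from RefSeq (build GRCr8; 250 bases before to 50 after the annotated start) were found for 6 of the 8 genes. Those of 2 genes that fell and 2 that rose are shown, since members that moved the same way can be compared for shared motifs. The motifs searched on both strands were the E-box CACGTG, read by Myc and its relatives; the CCAAT box, read by NF-Y; GGGCGG, read by Sp1; the octamer ATTTGCAT; and the p53 response element, taken as 2 adjoining half-sites with at most 1 mismatch outside their core. Capitals mark the E-boxes alone in Cdk4, CCAAT and GGGCGG in Ccnd3 on either strand, the p53 element in Cdkn1a, and the octamer and CCAAT in Gadd45a. The windows lie at chr7:64771203-64771502 (plus strand) for Cdk4, chr9:20897826-20898125 (minus strand) for Ccnd3, chr20:7150682-7150981 (plus strand) for Cdkn1a and chr4:97486750-97487049 (minus strand) for Gadd45a.
Cdk4: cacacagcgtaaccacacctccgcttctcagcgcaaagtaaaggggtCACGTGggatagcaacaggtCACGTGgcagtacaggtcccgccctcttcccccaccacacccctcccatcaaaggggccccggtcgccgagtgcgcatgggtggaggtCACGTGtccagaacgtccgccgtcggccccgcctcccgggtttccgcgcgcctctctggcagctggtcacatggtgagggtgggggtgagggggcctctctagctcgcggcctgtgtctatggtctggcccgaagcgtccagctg
Ccnd3: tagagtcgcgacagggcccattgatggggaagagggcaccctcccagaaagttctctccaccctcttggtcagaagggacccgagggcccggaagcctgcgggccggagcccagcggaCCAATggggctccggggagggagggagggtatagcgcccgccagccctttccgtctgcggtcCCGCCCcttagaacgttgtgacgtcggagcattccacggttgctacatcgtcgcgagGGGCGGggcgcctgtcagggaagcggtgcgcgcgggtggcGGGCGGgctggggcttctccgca
Cdkn1a: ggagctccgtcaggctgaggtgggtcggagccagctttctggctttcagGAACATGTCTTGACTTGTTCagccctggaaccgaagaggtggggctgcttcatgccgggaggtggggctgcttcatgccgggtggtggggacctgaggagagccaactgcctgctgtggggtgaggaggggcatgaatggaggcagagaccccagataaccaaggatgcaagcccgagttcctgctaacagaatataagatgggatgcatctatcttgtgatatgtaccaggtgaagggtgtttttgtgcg
Gadd45a: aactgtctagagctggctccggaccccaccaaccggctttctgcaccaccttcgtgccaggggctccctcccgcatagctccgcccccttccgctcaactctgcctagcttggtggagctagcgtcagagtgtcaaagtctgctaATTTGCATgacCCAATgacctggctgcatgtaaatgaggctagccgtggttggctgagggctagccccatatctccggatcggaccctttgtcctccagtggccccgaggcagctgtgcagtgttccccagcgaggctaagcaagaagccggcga
The Cdk4 window held 3 E-boxes, starting at positions -203, -183 and -95 from the annotated start. Of 33469 windows of this length, 6.42% held an E-box and 19 held at least 3. The Cdkn1a window held a p53 element starting at position -201 from its annotated start (1 mismatch), a match found in 12 of the 33469 windows. Whether Cdkn1a is transcribed from that start in these cultures was not tested. No such element matched in the windows of Mdm2, Gadd45a, Ccnd3, Cdk4 or Cdkn1b, which says only that its letters are not in those windows. CCAAT stood in 37.5% of all windows, GGGCGG in 33.1% and the octamer in 1.78%. The 2 genes that fell shared GGGCGG, which was also in the Gadd45a window (in lower case in Cdk4 and Gadd45a), and the 2 that rose shared none of the motifs.

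**Figure D1:**
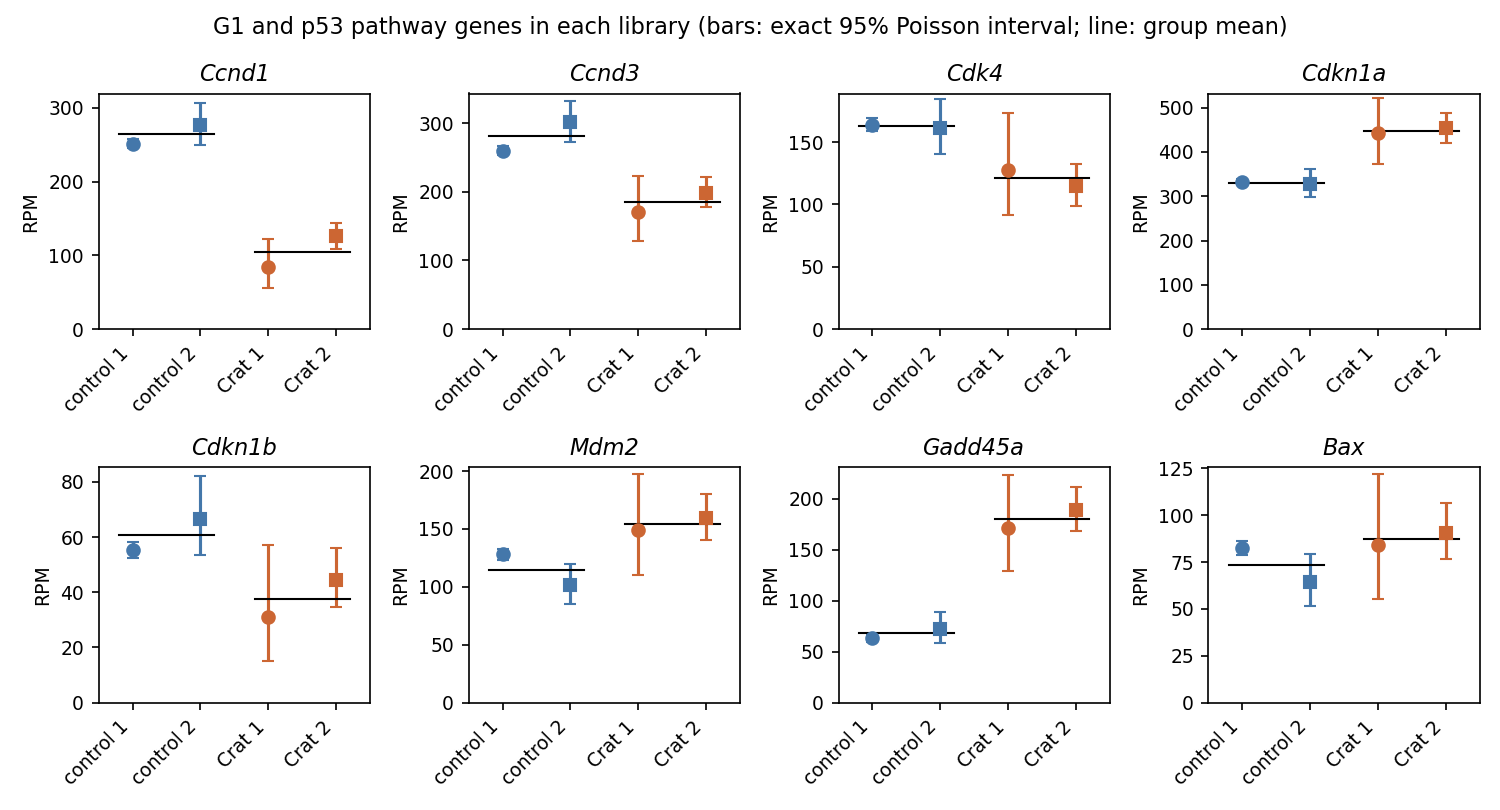
Expression of the 8 genes in RPM (y axis, linear, from 0) in each library (x axis); circles are replicate 1, squares replicate 2, bars exact 95% Poisson intervals of the reads and horizontal lines group means. Ccnd1 sits at 251 and 277 RPM in the controls and at 84.0 and 126 with the Crat hairpin, while Gadd45a goes from 62.9 and 72.6 to 171 and 189.

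Both D cyclins measured and their kinase Cdk4 fell. Ccnd1, the D cyclin most responsive to growth factors, was at 251 and 277 RPM with the control hairpin and at 84.0 and 126 RPM with the Crat hairpin. The groups did not overlap, and the group mean was 2.52-fold lower with the Crat hairpin (264 ± 18.2 against 105 ± 29.5 RPM, SD, n = 2 each). The log2 change was -1.35 ± 0.175 (SE; limma, Benjamini-Hochberg adjusted p = 0.000532). The shallowest library held 27 reads of Ccnd1, which allow 55.3 to 122 RPM (exact 95% Poisson interval, counting error only), still under both controls.

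Ccnd3, the D cyclin that persists in many differentiated tissues, stood at 260 and 302 RPM in the controls and at 171 and 198 RPM with the Crat hairpin. Both Crat hairpin libraries were below both controls, and the log2 change was -0.60 ± 0.12 (limma adjusted p = 0.00647), or -0.75 relative to the median of all genes. Cdk4, the catalytic partner of the D cyclins, stood at 164 and 161 RPM in the controls and at 128 and 115 RPM with the Crat hairpin. This was the smallest of the 3 falls, at a log2 change of -0.42 ± 0.12 (limma adjusted p = 0.0379), or -0.57 relative to the median. The Poisson interval of Cdk4 in Crat hairpin replicate 1, from 91.5 to 173 RPM on 41 reads, covered both control values, so the depth of that library alone does not separate it from them.

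The balance of the D cyclins was lower for Ccnd1 in both Crat hairpin libraries. The log2 ratio of Ccnd1 to Ccnd3 was -0.05 and -0.12 in the controls and -1.02 and -0.65 with the Crat hairpin, a difference of -0.75. An exact permutation test of 2 libraries against 2, two-sided, gave p = 0.333, the smallest it can give.

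These calls depended on the fit. Without control replicate 2 the Ccnd1 log2 change was -1.28 and no longer passed (limma adjusted p = 0.0577). Ccnd3 and Cdk4 lost the call without either control library (limma adjusted p = 0.0800 and 0.235 for Ccnd3, 0.387 and 0.382 for Cdk4). Under median-of-ratios scaling all 3 genes passed, at log2 changes of -1.54, -0.79 and -0.62, and they passed in the authors' deposited table as well, with adjusted p = 4.89e-11, 0.000246 and 0.00727.

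The cultures hold several cell types, and in bulk RNA fewer cells of a type cannot be told apart from less RNA per cell. Markers of these cells moved in the same comparison as the D cyclins. Among all genes 12.6% were higher and 6.36% lower by the limma test on RPM. Of 9 cardiomyocyte markers 8 fell, Myh7, the beta myosin heavy chain, by 1.96 and Tnnt2, cardiac troponin T, by 1.21 on the log2 scale. Their summed level was 23970 and 24450 RPM in the controls and 10750 and 11270 RPM with the Crat hairpin, and none was at 0 in any library. Of 10 smooth muscle and pericyte markers 6 fell and 2 rose. Cspg4, a pericyte proteoglycan, fell by 3.46 and Acta2, smooth muscle actin, by 2.24. The 2 that rose, Abcc9 by 1.22 and Pdgfrb by 0.37, are also pericyte genes (named after their values were seen). Pdgfrb lost the call under median-of-ratios scaling (limma adjusted p = 0.130). The sum went from 5278 and 5394 RPM to 2047 and 1941 RPM. Of 10 fibroblast markers 5 fell and 3 rose, with Thy1 lower by a log2 change of -2.39 and Pdgfra, a growth factor receptor, higher by 2.10. The fibroblast sum went from 23190 and 24160 RPM to 17110 and 17460 RPM. Such sums follow their most abundant genes, here Col3a1 among others (7878 and 8146 RPM in the controls), and not Pdgfra (112 and 99.9 RPM). Of 7 endothelial markers tested 1 rose and 1 fell, with sums of 333 and 365 against 296 and 352 RPM. Most of the control sums was Eng, at 276 and 297 RPM (named after its values were seen). Vwf, under the filter on low values, had 9 and 1 reads in the controls and 0 in both Crat hairpin libraries. Such low counts do not show a change. None of 7 leukocyte markers tested passed the limma test, and their sum was 43.9 and 41.6 against 56.0 and 41.9 RPM. In the shallowest library the pericyte gene Rgs5, the endothelial gene Cdh5 and the leukocyte genes Csf1r and Cd3e had no read. The part of cell makeup in the changes of G1 and p53 pathway genes was not tested.

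Of the CIP/KIP inhibitors Cdkn1a rose, and Cdkn1b did not pass. Cdkn1a, which encodes p21, stood at 332 and 328 RPM in the controls and at 442 and 453 RPM with the Crat hairpin. The groups did not overlap (330 ± 2.43 against 447 ± 7.92 RPM, SD, n = 2 each). These SDs are smaller than counting error: the exact 95% Poisson interval was 372 to 521 RPM in Crat hairpin replicate 1, on 142 reads, and 298 to 361 RPM in control replicate 2, on 434 reads. The log2 change was 0.44 ± 0.08 (SE; limma adjusted p = 0.00387). Set against the median of all genes, the rise was 0.29. It lost the call under median-of-ratios scaling, with a log2 change of 0.24 (limma adjusted p = 0.0619), under TMM scaling (0.23, limma adjusted p = 0.0884) and without control replicate 1 or 2 (limma adjusted p = 0.108 and 0.126). In the authors' deposited table Cdkn1a did not pass (adjusted p = 0.297), while edgeR on the recovered reads called it higher (log2 change 0.24, adjusted p = 0.0187).

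Cdkn1b, which encodes p27, stood at 55.2 and 66.6 RPM in the controls and at 31.1 and 44.4 RPM with the Crat hairpin. Both Crat hairpin values were below both controls, but Crat hairpin replicate 1 held only 10 reads, which allow 14.9 to 57.2 RPM. The log2 change was -0.69 ± 0.23, with a 95% interval from -1.21 to -0.18, and did not pass after adjustment (limma adjusted p = 0.0649). It passed under median-of-ratios scaling (-0.88, adjusted p = 0.0252) and in edgeR (-0.66, adjusted p = 0.00258), and not in DESeq2 (-0.77, adjusted p = 0.146). The value ranged from -0.44 without Crat hairpin replicate 1 to -0.94 without Crat hairpin replicate 2. Each of these fits keeps 1 Crat hairpin library, so its replicate spread comes from the controls alone. The log2 ratio of Cdkn1a to Cdkn1b was 2.56 and 2.28 in the controls and 3.79 and 3.32 with the Crat hairpin, higher in both (exact permutation test, two-sided, p = 0.333, the smallest possible).

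Among the p53 targets Gadd45a rose, and Mdm2 and Bax did not pass. Gadd45a, a stress sensor that binds PCNA and the mitotic kinase CDK1 and is induced by p53 and by other stress factors, stood at 62.9 and 72.6 RPM in the controls and at 171 and 189 RPM with the Crat hairpin. The mean was 2.66-fold higher (67.8 ± 6.87 against 180 ± 12.8 RPM, SD, n = 2 each). The log2 change of 1.40 ± 0.14 (SE; limma adjusted p = 0.000115) was 1.25 relative to the median of all genes. Of the 8 genes Gadd45a was the one called with each of the 4 libraries left out in turn, with a smallest log2 change of 1.30 (limma adjusted p of at most 0.0169). It also passed in edgeR (1.31), in DESeq2 (1.26) and in the authors' deposited table (adjusted p = 2.22e-07).

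Mdm2, the ubiquitin ligase that marks p53 for degradation and is itself induced by p53, stood at 128 and 101 RPM in the controls and at 149 and 160 RPM with the Crat hairpin. The Crat hairpin libraries lay above the controls, the controls differed from each other by more than the Crat hairpin libraries did, and the log2 change of 0.43 ± 0.14 did not pass (95% interval 0.11 to 0.76; limma adjusted p = 0.0650). Over the 4 fits with a library left out it ranged from 0.27 to 0.60. It was 0.48 without Crat hairpin replicate 1 and 0.39 without replicate 2. Those fits keep 1 Crat hairpin library, so a call there rests on the spread between the controls alone. Under median-of-ratios scaling the change of Mdm2 was 0.24 (limma adjusted p = 0.302). Bax, which permeabilises the outer mitochondrial membrane in apoptosis, stood at 82.5 and 64.3 RPM in the controls and at 84.0 and 90.6 RPM with the Crat hairpin. The gap between the groups was smaller than the gap between the controls. The log2 change was 0.26 ± 0.17, with an interval from -0.13 to 0.64 (limma adjusted p = 0.346), and it was -0.031 in edgeR on the recovered reads.

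**Figure D2:**
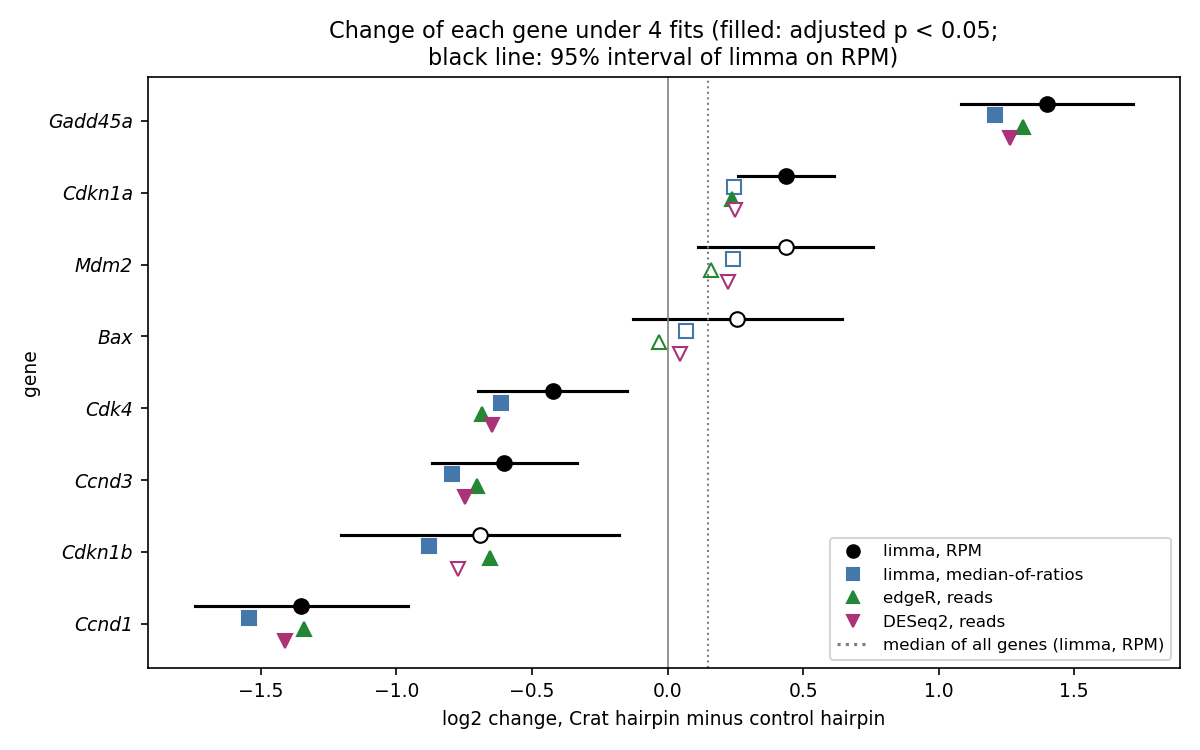
Log2 change of each gene (x axis; Crat hairpin minus control hairpin) under limma on RPM, limma after median-of-ratios scaling, edgeR and DESeq2 on recovered reads; filled symbols passed an adjusted p of 0.05, black lines are 95% intervals of the limma fit, and the dotted line is the median of all genes. Ccnd1, Ccnd3, Cdk4 and Gadd45a are filled in all 4 fits, Cdkn1a and Cdkn1b in some, and Mdm2 and Bax in none.

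Of the 8 genes, 2 passed the limma test as higher and 3 as lower, where 19% of all genes passed. The groups did not overlap for any of the 8, 4 lying higher and 4 lower; 60.8% of all genes did not overlap either, 39.1% higher and 21.7% lower. Under median-of-ratios scaling 1 gene was higher and 4 were lower, against 17.7% of all genes called. TMM scaling gave the same counts, against 17.6% of all genes (7.76% higher, 9.87% lower). On the recovered reads edgeR and voom each called 2 higher and 4 lower, against 29.7% (13.7% higher, 15.9% lower) and 31.8% (16.5% higher, 15.2% lower) of all genes. DESeq2 called 1 higher and 3 lower, against 13.2% (6.13% higher, 7.09% lower). The authors' deposited table has 4 of the 8 at an adjusted p under 0.05, and 10.5% of all genes. Without the variance trend none of the 8 passed (limma adjusted p of 0.0553 for Gadd45a, 0.0971 for Ccnd1 and 0.165 to 0.473 for the others), and 266 genes in all were higher and 79 lower. That fit draws each gene's spread toward a single value for all genes, whatever their mean. Tnnt2, at a log2 change of -1.21, did not pass there either (limma adjusted p = 0.0554).

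**Figure D3:**
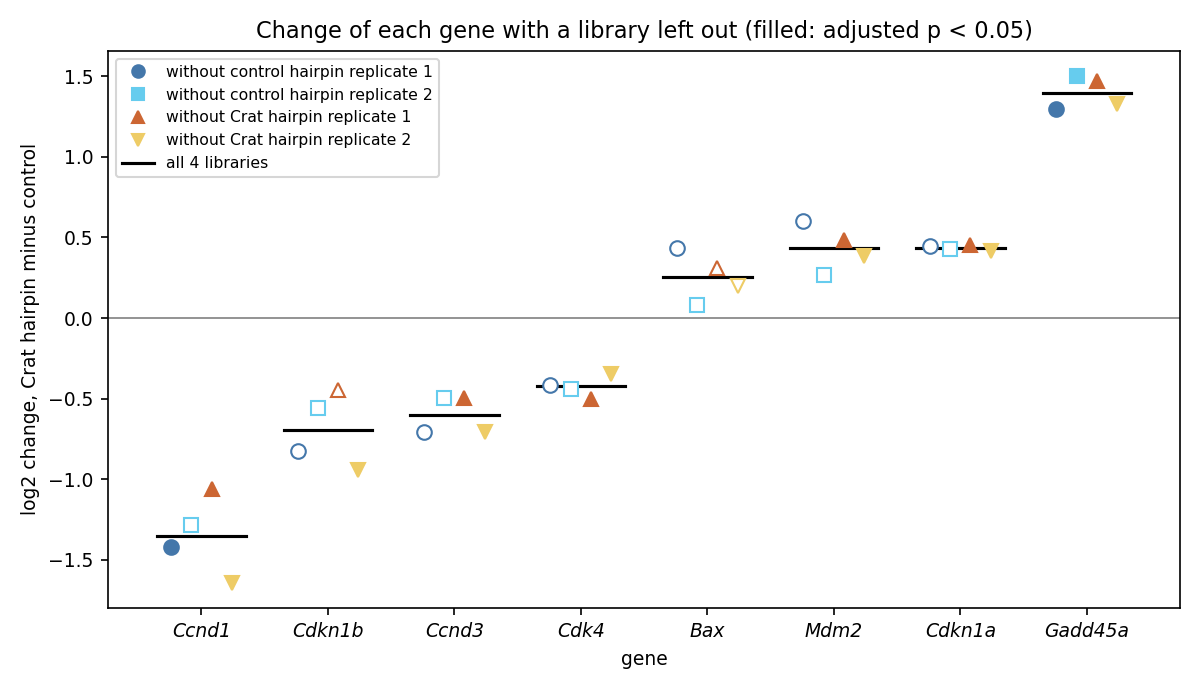
Log2 change of each gene (y axis; Crat hairpin minus control) with a library left out in turn (symbols; filled where the limma adjusted p was under 0.05) and with all 4 libraries (black line). Gadd45a is filled in all 4 fits, Ccnd1 is open without control replicate 2, and no gene changes sign.

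The rest of the pathway was read from lists of its parts. Of 10 other cyclins and kinases of G1 and S entry, 1 rose, none fell and 9 did not pass, where 12.6% of all genes were higher and 6.36% lower. The median log2 change was 0.08 against 0.15 for all genes. The gene that rose was Ccnc, cyclin C, a partner of the Mediator kinase, from 23.2 and 18.2 to 49.8 and 37.0 RPM (log2 change 1.03, limma adjusted p = 0.0238). Ccnc lost the call under median-of-ratios scaling (0.84, limma adjusted p = 0.0567), TMM scaling (0.83, limma adjusted p = 0.0595) and in DESeq2 (0.77, adjusted p = 0.285), which leaves no call in this list in those fits. Cdk6, the other kinase of D cyclins, stood at 11.7 and 14.4 RPM in the controls and at 9.33 and 12.9 RPM with the Crat hairpin (log2 change -0.22, adjusted p = 0.735), and cyclin E1, Ccne1, at 7.60 and 7.57 against 12.4 and 12.3 RPM (0.64, adjusted p = 0.308). Both were named after their values were seen.

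None of 6 further CDK inhibitor genes passed the limma test, which 19% of all genes passed. In edgeR 1 of them was lower, where 15.9% of all genes were lower. The median log2 change was -0.37. In Crat hairpin replicate 1, 4 of these 6 had fewer than 10 reads. So had 8 of the 10 cyclins and kinases above and 8 of the 12 retinoblastoma and E2F genes below. Small changes in these lists were not detectable at this depth. Cdkn2b, the INK4 inhibitor p15, which blocks CDK4 and CDK6, stood at 71.5 and 67.3 RPM in the controls and at 65.3 and 83.2 RPM with the Crat hairpin (log2 change 0.09), and its sign turned under median-of-ratios scaling (-0.10). Of 12 retinoblastoma and E2F family genes 1 rose and none fell, against 12.6% and 6.36% of all genes, with a median of 0.28. This was E2f6, a repressive E2F, from 44.9 and 39.3 to 71.5 and 91.8 RPM (log2 change 0.93, limma adjusted p = 0.00886), and it did not pass in DESeq2 (0.79, adjusted p = 0.0589). Rbl2, a relative of the retinoblastoma protein, stood at 46.1 and 46.9 against 43.5 and 59.8 RPM.

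Genes that act on the turnover of D cyclins or p27 went both ways, with 2 of 16 higher and 3 lower; under median-of-ratios scaling none was higher and 3 were lower. Their median log2 change was 0.17 against 0.15 for all genes, of which 19% passed the limma test on RPM. Skp1, the adaptor of SCF ubiquitin ligases, fell from 390 and 378 to 224 and 208 RPM (log2 change -0.83, limma adjusted p = 0.000194). Cryab, a small heat shock protein abundant in heart that assists a ligase of cyclin D1, fell from 724 and 768 to 470 and 462 RPM (log2 change -0.68). The cullin scaffolds Cul1 and Cul4b rose by 0.52 and 0.68 and lost the call under median-of-ratios scaling (limma adjusted p = 0.101 and 0.0512).

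Of 16 genes that control p53, 2 rose and 1 fell, near the 19% of all genes that passed. The median log2 change was 0.19 against 0.15 for all genes. Under median-of-ratios scaling 1 was higher and 2 were lower. Hipk2, a kinase that phosphorylates p53, rose by 0.82 (limma adjusted p = 0.0149). Rpl5, a ribosomal protein that binds and inhibits Mdm2, fell by 0.31 (limma adjusted p = 0.0113), and did not pass without the variance trend (limma adjusted p = 0.304). Ribosomal protein genes have near-identical processed copies, and their part in this value was not tested.

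Other p53 targets showed no common direction. Of 40 tested 8 rose, 3 fell and 29 did not pass, where 12.6% of all genes were higher and 6.36% lower. The median log2 change, 0.16, was close to the 0.15 of all genes. With median-of-ratios scaling 6 were called higher and 5 lower, where 8.04% of all genes were higher and 9.66% lower. Pml, a nuclear body protein that is also an interferon-stimulated gene, rose from 36.0 and 53.7 to 152 and 166 RPM (log2 change 1.83, limma adjusted p = 0.000167). Gdf15, a stress cytokine, rose by 1.51 (limma adjusted p = 0.00501) and Bcl6, a transcriptional repressor, by 1.34. Perp, a membrane protein of desmosomes and a p53 effector of cell death, fell from 49.3 and 37.8 to 9.33 and 19.7 RPM (log2 change -1.60, limma adjusted p = 0.0124), on 3 reads in Crat hairpin replicate 1. Named after their values were seen, Ccng1, cyclin G1, stood at 953 and 900 RPM in the controls and at 737 and 697 RPM with the Crat hairpin, a log2 change of -0.37 (limma adjusted p = 0.00338), and Sesn2, a stress-induced inhibitor of mTORC1 signalling, rose by 1.20. The paralogs of Gadd45a did not pass: Gadd45b stood at 20.6 and 23.4 against 21.8 and 35.1 RPM, and Gadd45g at 49.7 and 66.6 against 115 and 65.3 RPM.

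In the BCL2 family around Bax, 4 of 11 genes rose and none fell, where 12.6% of all genes were higher. The median log2 change was 0.54 against 0.15 for all genes. Under median-of-ratios scaling 3 rose, with a median of 0.35, where 8.04% of all genes were higher. Without the variance trend 0 were called. Bak1, the other pore-forming effector, rose from 81.1 and 71.9 to 196 and 170 RPM (log2 change 1.25, limma adjusted p = 0.000217). The BH3-only activators Bcl2l11 (Bim) and Bid rose by 1.37 and 1.20. Bcl2l1, whose main product Bcl-xL protects from cell death, rose by 0.54 (limma adjusted p = 0.0155), and not under median-of-ratios scaling (0.35, adjusted p = 0.0960). Relative to Bcl2l1, Bax was at log2 ratios of -0.61 and -0.95 in the controls and -0.99 and -1.14 with the Crat hairpin.

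Genes of DNA replication, whose transcription follows E2F release, and genes of mitosis showed few calls. Among all genes 12.6% were higher and 6.36% lower. Of 24 S phase genes 1 rose and none fell, with a median log2 change of 0.18. This was Tyms, thymidylate synthase (0.67, limma adjusted p = 0.0477), which did not pass under median-of-ratios scaling (adjusted p = 0.146). Pcna, the replication clamp, stood at 45.4 and 43.1 RPM in the controls and at 43.5 and 59.1 RPM with the Crat hairpin. Of 24 genes of G2 and mitosis 1 fell and none rose, with a median of -0.09. Anln, the actin-binding protein anillin of the cleavage furrow, fell from 110 and 103 to 46.7 and 35.7 RPM (log2 change -1.36, limma adjusted p = 0.000719). Mki67, the proliferation marker, stood at 29.7 and 26.5 against 24.9 and 30.2 RPM (named with Pcna after their values were seen), and Top2a, the DNA topoisomerase of dividing cells, at 24.4 and 28.0 against 46.7 and 32.7 RPM. In Crat hairpin replicate 1, 18 of the 24 S phase genes and 22 of the 24 mitosis genes had fewer than 10 reads, so that small changes were not detectable at this depth.

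With either control library left out, the calls on Ccnc, E2f6, Cul1, Cul4b, Hipk2, Rpl5, Gdf15, Bcl6, Perp, Bcl2l11, Bid, Bcl2l1, Tyms and Anln were lost; Tyms also lost it without Crat hairpin replicate 1. The largest limma adjusted p was 0.393 for Ccnc, 0.233 for E2f6, 0.250 for Cul1, 0.243 for Cul4b, 0.271 for Hipk2, 0.240 for Rpl5 and 0.501 for Tyms, and it ran from 0.0816 for Anln to 0.310 for Perp among the others. Skp1, Cryab, Pml and Bak1 passed with each library left out but not without the variance trend (limma adjusted p = 0.0936, 0.116, 0.0640 and 0.0660). Of the 33 genes called among those the naming rule took from the lists, cell type markers included, 8 passed without that trend. A left-out fit keeps 1 library in a group, so its replicate spread comes from the other group alone. Over all genes, fewer calls were made without a control library than with all 4 libraries, and more without a Crat hairpin library. The list counts moved in the same way. With a library left out in turn, the other p53 targets gave 2 to 13 higher and 1 to 6 lower, and without the variance trend 1 higher and 0 lower. The BCL2 family gave 1 to 6 higher and 0 lower, the p53 regulators 0 to 5 higher and 0 to 2 lower, and the turnover genes 0 to 4 higher and 2 to 3 lower. The cyclins and kinases of G1 and S entry gave 0 to 2 higher and 0 to 3 lower, the CDK inhibitors 0 to 1 higher and 0 lower, and the retinoblastoma and E2F genes 0 to 3 higher and 0 to 4 lower. S phase genes gave 0 to 6 higher and 0 to 2 lower, and mitosis genes 0 to 3 higher and 0 to 4 lower. Of the cell type markers, cardiomyocyte genes gave 0 higher and 7 to 8 lower, fibroblast genes 2 to 3 higher and 3 to 6 lower, smooth muscle and pericyte genes 0 to 3 higher and 4 to 7 lower, endothelial genes 0 to 1 higher and 0 to 2 lower, and leukocyte genes 0 to 1 in each direction.

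**Figure D4:**
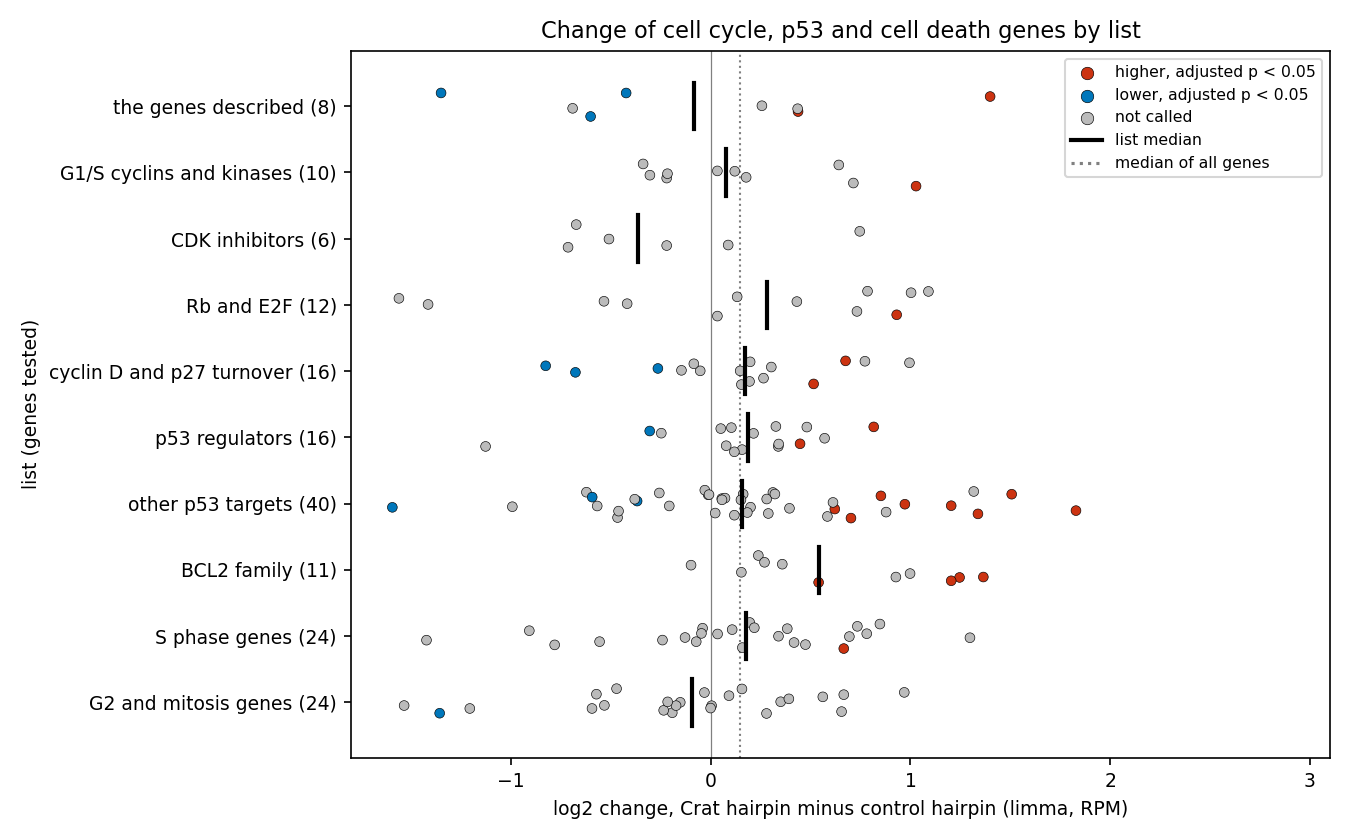
Log2 change (x axis; Crat hairpin minus control hairpin, limma on RPM) of the 8 genes and of the genes of 9 lists (rows, with the number tested); red points rose, blue points fell, grey points did not pass, thick lines are list medians and the dotted line is the median of all genes. The median of the BCL2 family, 0.54, lies right of the dotted line at 0.15, and nearly all S phase and mitosis genes are grey.

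By profile over the 4 libraries, measured as the Euclidean distance between log2(RPM + 1) values centred on each gene's mean, the named genes nearest to Ccnd1 among 9937 with a mean of at least 5 RPM were Tmlhe (distance 0.10), Itgb3 (0.11) and Kank1 (0.12). Tmlhe, the first enzyme of carnitine synthesis, stood at 20.7 and 21.9 RPM in the controls and at 6.22 and 10.5 RPM with the Crat hairpin. In Crat hairpin replicate 1, at 3.11 RPM per read, Tmlhe and Itgb3 (15.6 RPM) rested on fewer than 10 reads. Their distances and ranks carry that counting error, and a tie of Ccnd1 to carnitine synthesis was not tested. Within a distance of 0.2 lay 20 genes for Ccnd1 and 632 for Cdkn1a, with RGD1307100 (distance 0.023) and Cxxc1 (0.028) among its nearest. A profile over 4 libraries in 2 groups holds little beyond the size of the change and the gap within each pair.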

How the data were processed

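RNA sequencing was done on 4 libraries, 2 per group. Per the submitters' processing notes, the authors used kallisto and DESeq2 (no versions given) with the build mRatBN7.2; no source used here gives the gene summing, the filters or the strand setting. The deposited signal per library is headed TPM, per the file headers, but all values are whole multiples of a per-library step (100% within 0.02 of a read), so it was read as RPM and the reads were recovered. Group means and, for each gene, a raw and an adjusted p-value were also deposited by the authors.

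Of 14318 rows, 140 identifiers stand on several rows and were used once, leaving 14137. List genes whose identifier carries a further symbol (E2f1, Chek1, Itgam) were left out of the list counts. The 12949 genes whose mean reached 1 RPM were fitted as log2(RPM + 1) with limma 3.58.1 (R 4.3.3) with a variance trend, two-sided, Benjamini-Hochberg over all genes, threshold 0.05. Changes on this scale understate those of low genes. The design had assumed a length-normalised unit; the same test was kept. Alternatives were other scalings, pseudocounts, filters and variance priors, edgeR 4.0.16, DESeq2 1.42.0 and voom on the recovered reads, a replicate block, and each library left out. Reads of the replicates differed by more than counting error (chi-square per degree of freedom 1.47 and 1.29), so each library counted as 1 replicate. With 2 libraries a group the smallest exact permutation p is 0.333. Intervals on reads cover counting error only.

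The text names the 8 genes and Crat, and from each list the called genes with the largest changes (4 at most) or, with fewer than 2 called, also the most abundant ones (2 at most); other names are marked as chosen after their values were seen. For Ccnd1 and Cdkn1a the rule took the 3 nearest named profiles. Some genes that these rules take are not reported here. The genes and lists were chosen with earlier results of these data known. Promoter windows came from RefSeq, of another build (GRCr8) than the files, and were matched by symbol.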

Additional observations from a re-analysis of the deposited data

How the results depend on the processing

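Alternatives were tried one at a time on the 8 genes. Over the 12 that keep all libraries, 81 of 96 gene results kept direction and side of the threshold, 8 lost the call, 5 gained it and 2 turned: Bax was -0.031 in edgeR and -0.059 in voom. With a library left out no gene turned sign, and 22 of 32 kept their side. The 2 genes called higher became 1 under TMM scaling, median-of-ratios scaling and DESeq2 and 0 without the variance trend, where the 3 called lower also became 0; with a library left out the genes called higher ranged from 1 to 3 and those called lower from 0 to 4. Over all genes 1631 were higher and 823 lower; TMM scaling gave 1005 and 1279, median-of-ratios scaling 1042 and 1252, and no variance trend 266 and 79. DESeq2 gave 748 higher (and 865 lower), and edgeR and voom gave 2065 and 1974 lower (with 1775 and 2138 higher). With a library left out, genes called higher ranged from 419 to 3592 and genes called lower from 175 to 2626. The share of calls that were higher was 66.5% on RPM and 45.4% under median-of-ratios scaling; scaling moves every change by nearly the same amount, the median of all genes from 0.15 to -0.03.

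The replicate numbers of the labels are not stated to pair the libraries, and deviations of same-numbered libraries correlated at 0.00612 over 12949 genes. With the replicate block 1701 genes were higher and 895 lower, and of the 8 genes 2 were higher and 4 lower, Cdkn1b passing at -0.69 (limma adjusted p = 0.0412).

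Other named genes that turned sign did not pass in the fits where they turned. Cdkn2b was -0.12 under TMM and -0.10 under median-of-ratios scaling, -0.034 in edgeR, -0.047 in DESeq2, -0.037 in voom and from -0.085 to 0.259 with a library left out. Rbl2 was -0.07 and -0.057 under the same scalings and from -0.092 to 0.356 with a library left out. Left-out values ranged from -0.902 to 0.224 for Cdc25a, -0.185 to 0.09 for Rrm1, -0.834 to 0.347 for Fcer1g and -0.135 to 0.544 for Laptm5, which was -0.016 in edgeR and -0.027 in DESeq2. The -0.902 of Cdc25a came without Crat hairpin replicate 2, where the shallowest library is the only one of its group. The cause was not tested. Depth limits what Crat hairpin replicate 1 can show: with 3.11 RPM per read, genes under about 30 RPM rest there on fewer than 10 reads.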
